A study of Mus musculus and Homo sapiens with 12 samples.

Results

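The regions described here are 36030 stretches of the human genome that lay between genes and held peak rows for butyrylated histones in CCD841 cells. The peaks were called without a control. All peak rows of the 4 CCD841 lists were merged where they overlapped, which gave 547275 regions, and the 160182 regions that held a row from both replicates of H3K18bu, from both replicates of H4K12bu, or from both replicates of each mark were kept. The members are the kept regions that overlapped no GENCODE gene and came no nearer than 1 kb to any gene start. A further 39 intergenic regions lay in a window of chromosome 8 that is not reported. The members were therefore chosen by the peak rows of the same libraries that are described below, so the numbers of members, their mark class and their peak strength are descriptions and were not tested. By mark, 21646 members (60.1%) were H3K18bu only, 7240 (20.1%) were H4K12bu only and 7144 (19.8%) had both marks. These counts depended on the lists used. H4K12bu-only members numbered 2401 with q below 0.01 and 50673 without H4K12bu replicate 1, and H3K18bu-only members 52452 without H3K18bu replicate 1.

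The study asked where histone butyrylation lies in colon cells exposed to butyrate and in mouse intestine. CCD841 CoN is an established line from normal human colon, labelled epithelial, and all 4 libraries came from cells treated with 1 mM sodium butyrate for 12 to 16 h, with 2 replicates for H3K18bu and 2 for H4K12bu. No untreated library and no control antibody was analysed here, so every value describes butyrate-treated cells of 1 line. The 8 mouse libraries of the series were not used.

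Butyrate is a short-chain fatty acid that gut bacteria make from fiber and that colon cells burn as fuel. It inhibits histone deacetylases, and through butyryl-CoA it also supplies the group that is attached to lysines of the histone tails, as on lysine 18 of histone H3 and lysine 12 of histone H4. Acylated nucleosomes between genes are a usual feature of active enhancers, the distal elements at which transcription factors bind. The lists hold neither factor binding nor expression. CUT&Tag marks antibody-bound chromatin by cutting it with a tethered transposase, which also cuts open chromatin more readily than closed chromatin.

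Sequences are shown for the strongest member of each mark class in each distance class, since they show what kind of DNA carried the highest rows. Strength is the lower −log10 p of the 2 replicates of a mark, and the lowest of the 4 libraries for members with both marks. Each sequence is the plus strand of GRCh38, 75 bp on either side of the summit of the strongest row, in lower case, with capitals for the first listed motif found in it. Windows mostly made of sequence repeated through the genome were passed over.

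The H3K18bu-only windows lay at chr15:75666957-75667107, 8.78 kb from a lncRNA (ENSG00000260892), at chr10:124129683-124129833, 35.6 kb from CHST15, an enzyme of chondroitin sulfate synthesis, and at chr13:64723761-64723911, 235 kb from the pseudogene LGMNP1. Capitals in the CHST15 window mark an E-box, CAGCTG.
chr15 near ENSG00000260892: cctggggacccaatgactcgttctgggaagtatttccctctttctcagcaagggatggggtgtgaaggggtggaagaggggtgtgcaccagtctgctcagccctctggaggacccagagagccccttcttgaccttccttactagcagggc
chr10 near CHST15: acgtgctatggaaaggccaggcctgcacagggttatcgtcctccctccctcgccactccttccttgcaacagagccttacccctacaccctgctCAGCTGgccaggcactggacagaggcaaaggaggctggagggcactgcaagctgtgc
chr13 near LGMNP1: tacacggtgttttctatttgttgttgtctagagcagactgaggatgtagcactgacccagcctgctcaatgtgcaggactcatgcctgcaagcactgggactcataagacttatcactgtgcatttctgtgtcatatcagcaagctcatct
The H4K12bu-only windows lay at chr7:16598874-16599024, 4.64 kb from a lncRNA (ENSG00000272361), at chr11:102393531-102393681, 45.8 kb from BIRC2, an inhibitor of apoptosis, and at chr14:33902284-33902434, 137 kb from the antisense lncRNA EGLN3-AS1. Capitals mark a GATA motif in the chromosome 7 window and a CAGCTG E-box near BIRC2.
chr7 near ENSG00000272361: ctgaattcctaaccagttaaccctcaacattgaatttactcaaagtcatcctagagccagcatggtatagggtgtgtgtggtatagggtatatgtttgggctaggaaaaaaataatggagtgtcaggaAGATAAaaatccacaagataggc
chr11 near BIRC2: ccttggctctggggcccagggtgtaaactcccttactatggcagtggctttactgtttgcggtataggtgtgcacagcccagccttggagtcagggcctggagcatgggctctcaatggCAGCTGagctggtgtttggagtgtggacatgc
chr14 near EGLN3-AS1: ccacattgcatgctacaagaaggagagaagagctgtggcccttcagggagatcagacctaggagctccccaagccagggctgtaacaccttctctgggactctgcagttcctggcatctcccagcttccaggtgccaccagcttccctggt
The windows with both marks lay at chr17:22521294-22521444, 1.56 kb from MTCYBP13, a nuclear copy of a mitochondrial gene, at chr10:17914627-17914777, 36.5 kb from the zinc transporter gene SLC39A12, and at chr5:49658572-49658722, 784 kb from EMB, a cell adhesion gene. The MTCYBP13 window could be aligned to the mitochondrial genome at 86.1% identity, with capitals for a RUNX motif. The SLC39A12 window had a GC content of 35.8%. The window nearest to EMB held 17 copies of ATTCC, counted on both strands, and 49.3% of its 16-mers occurred at least 100 times in the genome.
chr17 near MTCYBP13: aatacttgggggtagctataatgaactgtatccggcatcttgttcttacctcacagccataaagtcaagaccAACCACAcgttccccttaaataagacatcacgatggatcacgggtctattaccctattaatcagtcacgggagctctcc
chr10 near SLC39A12: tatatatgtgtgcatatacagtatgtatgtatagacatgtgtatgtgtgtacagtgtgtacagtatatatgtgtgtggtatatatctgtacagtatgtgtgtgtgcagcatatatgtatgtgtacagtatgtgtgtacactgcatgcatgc
chr5 nearest to EMB: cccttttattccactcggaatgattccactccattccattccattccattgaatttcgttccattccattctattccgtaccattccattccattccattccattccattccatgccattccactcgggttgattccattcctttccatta
A further 4 windows, chosen after the motif shares were seen, are the strongest members of their class with an AP-1 motif or a CTCF core. The AP-1 windows lay at chr10:29784394-29784544, 47.0 kb from SVIL (H3K18bu only), whose product binds actin, and at chr5:124629244-124629394, 77.8 kb from the lncRNA ENSG00000249112 (both marks), with the centre of the motif 52 bp and 3 bp from the summit. The first had −log10 p 38.9 and 27.3 for H3K18bu and 14.1 in H4K12bu replicate 1 alone, and the second had 86.2, 64.8, 49.8 and 20.6 in H3K18bu replicates 1 and 2 and H4K12bu replicates 1 and 2. The CTCF windows lay at chr2:200905841-200905991, 16.5 kb from NIF3L1 (H4K12bu only), and at chr3:64484552-64484702, 38.8 kb from PRICKLE2 (both marks), with the centre of the motif 20 bp and 32 bp from the summit. The former had 9.71 and 10.2 for H4K12bu and no H3K18bu row, and the latter 19.3, 13, 40.8 and 11.4.
AP-1, chr10 near SVIL: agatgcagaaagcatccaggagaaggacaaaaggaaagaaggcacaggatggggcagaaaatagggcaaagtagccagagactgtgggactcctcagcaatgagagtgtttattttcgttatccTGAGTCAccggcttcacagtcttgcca
AP-1, chr5 near ENSG00000249112: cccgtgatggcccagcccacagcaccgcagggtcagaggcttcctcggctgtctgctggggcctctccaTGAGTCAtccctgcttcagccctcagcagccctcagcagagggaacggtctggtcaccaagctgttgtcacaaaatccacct
CTCF core, chr2 near NIF3L1: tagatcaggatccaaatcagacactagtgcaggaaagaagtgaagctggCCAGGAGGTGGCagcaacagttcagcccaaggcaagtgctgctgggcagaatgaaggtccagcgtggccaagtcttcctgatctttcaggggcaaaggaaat
CTCF core, chr3 near PRICKLE2: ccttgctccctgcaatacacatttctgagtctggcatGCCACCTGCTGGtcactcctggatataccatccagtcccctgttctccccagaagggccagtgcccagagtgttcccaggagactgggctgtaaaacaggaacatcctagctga

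Before the members are described, 2 features of the libraries have to be given. The lists held between 299296 and 299720 rows, each set by the limit on its length, so the weakest row listed had a −log10 p of 5.31 and 4.56 for replicates 1 and 2 of H3K18bu, and of 4.81 and 2.97 for those of H4K12bu. H4K12bu replicate 2 stood apart, with the lowest local background (0.788, against 1.12 to 1.55 in the other 3) and a q below 0.05 in 56.3% of its rows, against 100% in the others. The absence of a row is therefore not the absence of the mark, and "H3K18bu only" means that the 2 H4K12bu lists did not both have a row there. In fact 62.5% of the H3K18bu-only members had no H4K12bu row at all, while 20.1% had 1 in replicate 1 alone and 17.3% in replicate 2 alone. Of the H4K12bu-only members, 67.5% had no H3K18bu row.

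The label of an epithelial line was compared with the rows at the starts of marker genes. Of 10 colon epithelial markers, 1, 3, 2 and 2 had a row within 1 kb of a start in H3K18bu replicates 1 and 2 and H4K12bu replicates 1 and 2. Of all protein-coding genes, 40.3%, 45.6%, 27.8% and 27.3% had a row at a start in the same libraries. VIL1, which encodes the microvillus protein villin, had rows of −log10 p 6.72 and 6.59 in the H3K18bu libraries and was not listed for H4K12bu. KRT8 and KRT18, keratins of simple epithelia, had the same values, 5.58, 5.05 and 4.13, in H3K18bu replicate 2 and H4K12bu replicates 1 and 2. EPCAM, CDH1, KRT19, KRT20, CDX1, CDX2 and ELF3 were not listed at their starts in any of the 4 libraries. Of 10 fibroblast markers, 4, 5, 2 and 2 had a row, among them COL6A3 with −log10 p 17.0, 12.2 and 7.70 in the first 3 libraries and COL1A2 with 9.24, 8.85, 5.40 and 6.03, while VIM, THY1, PDGFRB and DCN were not listed in any library. Of 4 smooth muscle markers 1, 2, 1 and 1 were listed, led by ACTA2 (9.98, 13, 6.13 and 4.70), and of 3 immune markers 0, 1, 1 and 1. In the H3K18bu replicates, the fibroblast counts (4 and 5 of 10) were close to the shares over all protein-coding genes. The epithelial counts there (1 and 3 of 10) were below those shares, most in replicate 1. In the H4K12bu replicates the epithelial and fibroblast lists had the same counts, 2 and 2 of 10. No library thus had rows at more than 5 of the 10 markers of either list, epithelial or fibroblast, and which cells the marks came from was not tested.

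Lysine 18 of H3 was the mark with the larger share of its regions between genes. Of the kept H3K18bu-only regions outside the unreported window, 31.1% were intergenic, against 13.8% of the H4K12bu-only regions and 18.7% of those with both marks. Gene bodies held 58.8%, 80.6% and 71.2% of the same classes. In single libraries, counting every region whether or not the other replicate had it, 27.8% and 27.2% of the H3K18bu regions were intergenic, and 16.9% and 22.8% of the H4K12bu regions. The difference between the marks, 10.8 points over the kept regions, was 3.86 points without H4K12bu replicate 1. The marks did not overlap in the single libraries, and H4K12bu replicate 2 was nearer to the H3K18bu libraries than to H4K12bu replicate 1. Among the 10000 strongest regions of each library the shares were 26.4% and 24.1% against 11.8% and 15.0%. Sequence between genes made up 38.4% of the assembled genome by the same definition, which was above the share of every library. With 2 libraries a mark, a two-sided exact permutation test cannot go below p = 0.33, and no difference between the marks was tested.

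Members lay nearer to gene starts than intergenic sequence in general. Within 10 kb of the nearest start of a gene of any type were 29.5% of the H3K18bu-only, 31.8% of the H4K12bu-only and 34.1% of the both-mark members, and 22.9% of all intergenic sequence. Beyond 100 kb were 6.86%, 10.5% and 5.50%, against 19.7% of the sequence. The remaining 63.7%, 57.6% and 60.4% lay from 10 to 100 kb away. Per Mb of intergenic sequence, this amounted to 43.3 members at 1 to 10 kb, 34.5 at 10 to 100 kb and 11.9 beyond 100 kb. The median distance was 19.6 kb, 19.9 kb and 16.3 kb in the 3 classes. Among all intergenic regions of single libraries, 6.39% and 6.61% with H3K18bu lay beyond 100 kb, and 7.65% and 10.8% with H4K12bu, while 31.0% and 30.6% with H3K18bu and 33.0% and 28.7% with H4K12bu lay within 10 kb, so that the marks overlapped within 10 kb and did not overlap beyond 100 kb. Measured to protein-coding starts only, 38.6% of the H3K18bu-only members, 42.7% of the H4K12bu-only members and 31.4% of those with both marks lay beyond 100 kb, against 59.3% of the sequence. By mark these were 36.8% of the H3K18bu and 37.1% of the H4K12bu members. With protein-coding genes alone as genes throughout, the difference between the marks beyond 100 kb turned from −1.51 to 0.730 points.

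**Figure D1:**
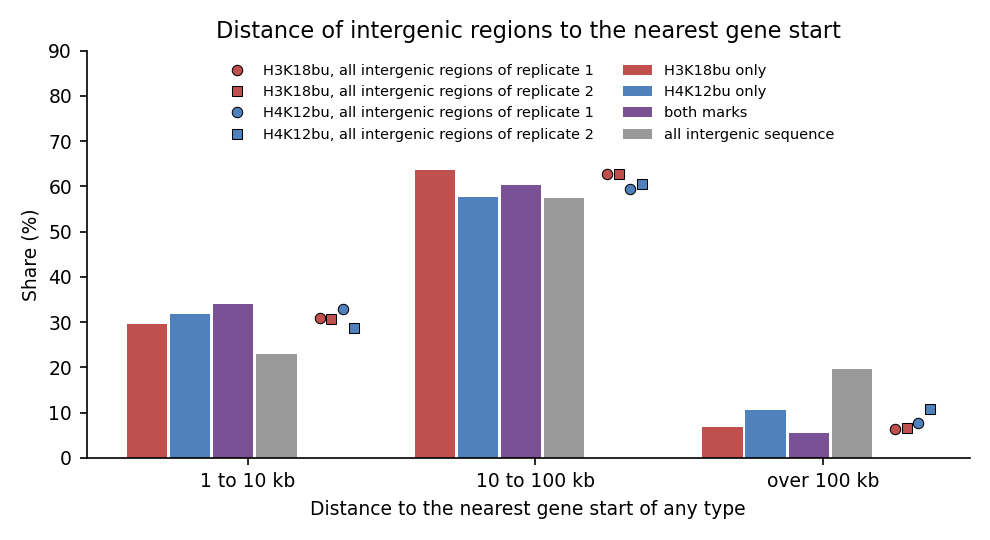
Share of intergenic regions (%) by distance to the nearest gene start of any type, with bars for the 3 mark classes and all intergenic sequence, and points for all intergenic regions of each library on its own. The bar of intergenic sequence is the highest beyond 100 kb (19.7%) and the lowest within 10 kb (22.9%).

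The side of the gene on which members lay differed between the marks. The stretch of 10 kb past the 3′ end of a protein-coding gene held 21.9% of the H4K12bu-only members and 18.6% of those with both marks, but 11.5% of the H3K18bu-only members and 6.85% of intergenic sequence. The single libraries had 13.5% and 13.1% with H3K18bu, and 19.6% and 14.1% with H4K12bu, and the marks did not overlap. H4K12bu replicate 2 was again nearer to the H3K18bu libraries than to H4K12bu replicate 1. By type, the nearest gene was protein-coding for 26.8% of the members (19.6% of the sequence), a lncRNA for 35.5% (31.3%), a pseudogene for 25.2% (36.8%) and a small RNA for 10.6% (10.4%).

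The members were narrow. Merged H3K18bu-only regions had a median width of 401 bp, H4K12bu-only regions of 383 bp and regions with both marks of 690 bp. A region with both marks joins rows from 4 libraries and one with a single mark from at least 2, so the merging by itself widens the former. The single-library intergenic regions had median widths of 232 and 191 bp for H3K18bu and 228 and 109 bp for H4K12bu. At least 1 kb wide were 1028 H3K18bu-only members (4.75%), 316 H4K12bu-only members (4.36%) and 1552 members with both marks (21.7%), and the widest spanned 2550, 2733 and 3226 bp. The 3 classes covered 9.73, 3.15 and 5.31 Mb. Kept regions inside genes had nearly the same medians, at 378, 384 and 672 bp.

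Strength is given here as the pileup, the number of extended read ends over the summit. H3K18bu rows had a median pileup of 16 and 12 in the replicates at H3K18bu-only members and of 21 and 16 at members with both marks. H4K12bu rows had 12 and 7 at H4K12bu-only members and 15 and 7 at those with both marks. H3K18bu rows in gene bodies had medians similar to those between genes (16 and 13 at H3K18bu-only regions), whereas the pileup of H4K12bu rows was higher in gene bodies in both replicates (16 and 8 at H4K12bu-only regions, 19 and 9 at those with both marks). Their local background was higher there too, with a median of 3.10 and 1.42 over all kept H4K12bu regions in gene bodies and of 1.84 and 0.956 between genes. The median fold over that background was the other way, at 4.19 and 3.64 in gene bodies and 4.41 and 3.85 between genes, and the median −log10 p was 7.93 against 7.07 in replicate 1 and 4.73 in both places in replicate 2. The summits of the replicates lay a median of 17.0 bp apart for H3K18bu and 52.0 bp apart for H4K12bu, and the folds of the replicates had a Spearman rho across members of 0.539 for H3K18bu and 0.362 for H4K12bu, where the members share libraries and depth and are no independent replicates.

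Near the thresholds of the choice, the 663 members from 1 to 1.5 kb from a start had median −log10 p values of 8.43, 6.93, 7.03 and 4.70 in the 4 libraries (H3K18bu replicates first), and the 637 regions left out at 0.5 to 1 kb had 8.40, 6.69, 7.03 and 4.58. Intergenic regions with an H3K18bu row in only 1 replicate numbered 25629 and 28142, with medians of 6.44 and 5.36, against 7.90 and 6.51 at H3K18bu-only members. For H4K12bu they numbered 14243 and 42235, with medians of 5.74 and 3.77, against 6.44 and 4.62. The regions left out for want of the other replicate were thus weaker, and those left out for lying close to a start were nearly as strong as the members beside them.

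The strongest H3K18bu-only members had rows far above the median in both H3K18bu replicates. The member near LGMNP1 (chr13:64723580-64724157) had −log10 p values of 48.3 and 43.2 for H3K18bu and of 32.7 in H4K12bu replicate 1, with no row in H4K12bu replicate 2. It therefore carried H4K12bu signal in 1 library and was counted as H3K18bu only by the rule. The member near CHST15 (chr10:124129170-124130440) had 31.4 and 35.8, and 6.26 in H4K12bu replicate 1. The member 39.6 kb from the lncRNA ENSG00000235911 (chr2:19670952-19672159) had 33.5 and 28.5, and 3.70 in H4K12bu replicate 2. Among H4K12bu-only members, the one near ENSG00000272361 (chr7:16598868-16599153) had 36.2 and 14.8 for H4K12bu and 9.34 in H3K18bu replicate 1. The member near BIRC2 (chr11:102393048-102393797) had 22.9 and 14.1, and 8.73 in H3K18bu replicate 2. The third, 127 kb from the pseudogene ENSG00000286968 (chr16:34574031-34574432), had 15.9 and 13.9, and 14.6 in H3K18bu replicate 2. All 6 thus had a row of the other mark in a single replicate.

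Of the members with both marks, the one near MTCYBP13 (chr17:22521178-22521610) was the strongest, with −log10 p 193, 165, 128 and 99.0 and pileups of 141, 123, 102 and 79 in the 4 libraries. The member 5.14 kb from DRD4, a dopamine receptor gene (chr11:642409-643044), had −log10 p 128 and 92.8 for H3K18bu and 212 and 108 for H4K12bu. The third (chr4:49149124-49149885), 53.8 kb from the pseudogene ENSG00000249828 and close to the centromere of chromosome 4, had nearly the same value in all libraries, at 74.6, 78.1, 75.9 and 75.9.

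Part of the strongest rows lay on repeated sequence. Among the 100 strongest members of each class, at least 50% of the 16-mers of the whole region were repeated through the genome in 0 of the H3K18bu-only members, 10 of the H4K12bu-only members and 13 of those with both marks. At least 5 copies of ATTCC, the unit of a satellite found near centromeres and on the acrocentric arms, were in 0, 11 and 12 of the summit windows. Across the whole of each class, 2.21%, 4.36% and 1.13% of the regions were repeated by the same measure. ATTCC was found at least 5 times in 0.0185%, 0.746% and 0.448% of the windows. Over all members, summit windows with at least 50% repeated 16-mers made up 3.54% and 3.48% of H3K18bu-only members in the H3K18bu replicates, 5.81% and 6.17% of H4K12bu-only members in the H4K12bu replicates and between 2.25% and 2.53% of members with both marks, against 19.6% of intergenic windows. Reads from repeated sequence map to many places, and how the aligner placed them was not tested. A single window among those 300, that of MTCYBP13, was at least 80% identical to a stretch of mitochondrial DNA. Over all members, only chr11:10509566-10509757, next to the miRNA gene MIR4485, shared at least 50% of its 16-mers with the mitochondrial genome (74.6%), with −log10 p 11.9 and 11.8 for H3K18bu and no H4K12bu row.

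Members were spread at unequal density over the numbered chromosomes and X, the 23 described here. Over the genome there were 32.0 members per Mb of intergenic sequence, 25.5 with H3K18bu and 12.8 with H4K12bu. The highest densities were on chromosomes 22 (42.9), 17 (41.7) and 2 (41.1), and the lowest on the numbered chromosomes were on 19 (20.4), 21 (23.9) and 4 (26.5). Chromosome 19, which has the most protein-coding genes per Mb, thus had the lowest density of the numbered chromosomes, at 15.1 H3K18bu and 9.20 H4K12bu members per Mb, against 35.6 and 17.6 on chromosome 22. The X chromosome had 9.86 per Mb. Its rows also had the lowest median background of the 23 chromosomes in the H3K18bu and H4K12bu replicates, at 1.74, 1.26, 1.83 and 0.788, against 2.64, 1.99, 2.83 and 1.05 over all chromosomes. The part of the background in these densities was not tested. On chromosome 19 it was below the genome-wide value for H3K18bu (2.25 and 1.67) and above it for H4K12bu (4.99 and 1.58).

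The densities of both marks followed each other across 23 chromosomes, with a Spearman rho of 0.872, but the 7144 members with both marks are counted in both densities. H3K18bu density had a rho of 0.657 and 0.672 with the background of its own replicates, and H4K12bu density of 0.370 and 0.438 with its own. Across marks, H4K12bu density had a rho of 0.676 and 0.685 with the H3K18bu backgrounds, and H3K18bu density of 0.282 and 0.356 with the H4K12bu backgrounds, so that both densities had the higher values with the H3K18bu backgrounds. With protein-coding genes per Mb, rho was 0.311 for H3K18bu and 0.443 for H4K12bu. These are descriptions over chromosomes that share the same 4 libraries.

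In windows of 1 Mb, the most H3K18bu members were 84 between 46 and 47 Mb of chromosome 7, of which 74 had IGFBP3 as the nearest protein-coding gene, and 84 between 48 and 49 Mb of chromosome 8, of which 37 were nearest to CLXN. The most H4K12bu members were 39 between 50 and 51 Mb of chromosome 20, of which 13 were nearest to the phosphatase gene PTPN1, and 38 between 69 and 70 Mb of chromosome 11, of which 10 were nearest to the cyclin gene CCND1. Chromosome 8 at 48 to 49 Mb was among the 5 densest windows of either mark, with 34 H4K12bu members.

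**Figure D2:**
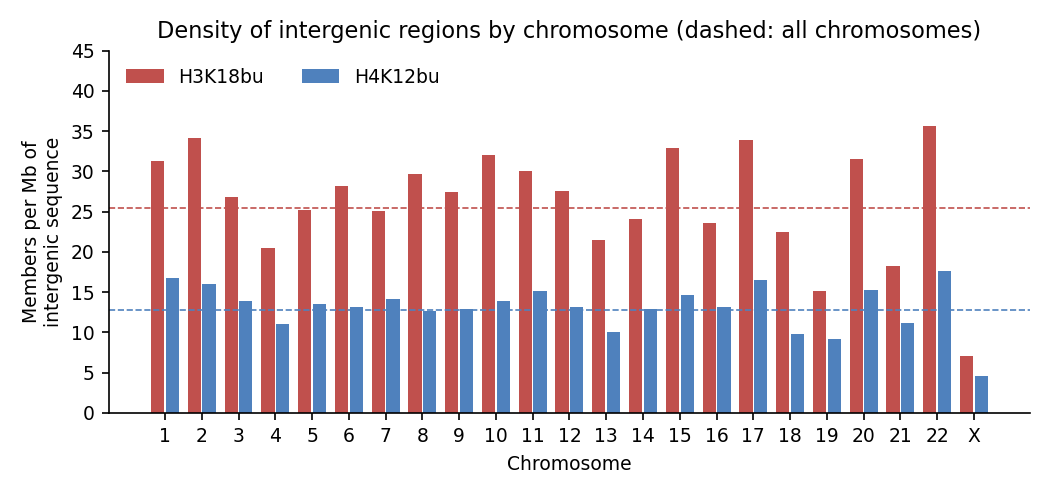
Members with H3K18bu and with H4K12bu per Mb of intergenic sequence, by chromosome, with dashed lines at the values over all chromosomes (25.5 and 12.8). Of the 23 chromosomes drawn, 22 is the highest (35.6 and 17.6), and 19 (15.1 and 9.20) and X (7.02 and 4.57) are the lowest for both marks.

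Members gathered in clusters. Joined over gaps of at most 12500 bp, they formed 17063 clusters, of which 9288 were single members (25.8% of all members) and 1474 held 5 or more (29.1% of all members). The largest by far ran over 320 kb, from 128345973 to 128665587 on chromosome 2, and held 73 members, 68 with H3K18bu and 18 with H4K12bu. Its nearest protein-coding gene was HS6ST1, an enzyme that sulfates heparan sulfate, and the gene of any type nearest to the most of its members was ENSG00000237532. Next came 32 members over 150 kb near INHBB and the lncRNA LINC01101 (120430175 to 120580089 on the same chromosome), with H3K18bu in all 32. A further 32 lay over 174 kb beside GPC1 (240258203 to 240432145), which encodes a heparan sulfate proteoglycan of the cell surface. The fourth cluster, also on chromosome 2, held 27 members over 110 kb (237125998 to 237235698) between COPS8, a subunit of the COP9 signalosome, and the lncRNA ENSG00000224132. The fifth place was shared by 3 clusters of 24, near CLXN on chromosome 8, SHB on chromosome 9, the gene of an SH2-domain adaptor, and LOXL4 on chromosome 10, a lysyl oxidase that crosslinks collagen.

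By its lowest value in the 4 libraries, the strongest member of the cluster near HS6ST1 lay at chr2:128380937-128381743, 62.1 kb from the gene start. The H3K18bu rows there had −log10 p 38.8 and 42.6 and the H4K12bu rows 33.1 and 9.26, with pileups of 79, 71, 60 and 19. Beside GPC1, the strongest (chr2:240385279-240386221) reached 61.8 and 61.1 for H3K18bu and 50.5 and 14.5 for H4K12bu, with pileups of 120, 111, 94 and 27. Both were listed in all 4 libraries, and in both the value of H4K12bu replicate 2 was the lowest.

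By nearest protein-coding start, INHBA had the largest count of H3K18bu members. It encodes the beta A subunit of activin, a ligand of the TGF-beta family. Of its 86 members, which lay from 52.7 to 760 kb from the start with a median of 289 kb, 70 were H3K18bu only, 2 H4K12bu only and 14 both. The 4 libraries had a row at 86, 84, 25 and 25 of them. HS6ST1 had 83 (59, 6 and 18), with rows at 78, 79, 33 and 35. IGFBP3, which encodes a carrier of insulin-like growth factors, had 78 (65, 1 and 12), with rows at 77, 78, 23 and 25. After these by H3K18bu members came the insulin receptor substrate IRS1 with 66, the limb and heart transcription factor TBX3 with 61, the Wnt receptor FZD8 with 58, the MAP kinase phosphatase DUSP10 with 57 and the nuclear receptor NR2F1 and the lipid kinase PIK3C3 with 54 each. Per Mb of the intergenic sequence nearest to them, the order among the 12 genes with the largest counts was another. The most were at IGFBP3, followed by 121 at MN1, 108 at DUSP10, 105 at IRS1 and 96.9 at INHBA. Next came 94.2 at NR2F1, 91.6 at HS6ST1, 80.7 at FZD8 and 76.8 at TBX3. The lowest of the 12 was PIK3C3 at 30.4, against 25.6 over all genes. These genes were picked by their H3K18bu members, so a preponderance of H3K18bu rows is given by the choice. Over all members, the 4 libraries had rows at 30049, 29881, 18745 and 18131. HS6ST1, INHBA, TBX3, FZD8 and NR2F1 were named by the rules for named genes, and IGFBP3, IRS1, DUSP10, PIK3C3 and MN1 were singled out after the values were seen.

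The genes with the most H4K12bu members were others, apart from HS6ST1 and ALCAM, which were among the first 12 of both marks. TPTE, on the short arm of chromosome 21, had 44, CWH43, beside the centromere of chromosome 4, had 29, as had MAP3K7 and PCDH9. These counts rest on wide stretches of sequence, and per Mb of the intergenic sequence nearest to them the 4 genes had 11.1, 25.4, 21.7 and 16.0 H4K12bu members, against 12.8 over all genes, so that TPTE was below the overall value. The neighbourhood of MAP3K7, the TAK1 kinase of TGF-beta and cytokine signalling, held 52 members, 23 of each single mark and 6 with both, and the 4 libraries had rows at 32, 29, 31 and 36. That of PCDH9, a protocadherin of neural cells, held 27 H4K12bu-only members among 32, with rows at 8, 6, 30 and 30. Its strongest member (chr13:65676398-65677658), 1553 kb from the start, had −log10 p 10.2 and 11.0 for H4K12bu and no H3K18bu row. PCDH9 was picked by its H4K12bu members, so their preponderance is given by the choice. MAP3K7 was also named by its count of H4K12bu members, so the weight of H4K12bu there is given by the choice too. Its members had equal totals of the marks, against 28790 H3K18bu and 14384 H4K12bu members over all genes. From −658 to −320 kb of the MAP3K7 start, the 17 members were all H4K12bu only with no H3K18bu row in either replicate. Most of those downstream of the start and from −776 kb outward were H3K18bu only. The bounds of these stretches were read from the members themselves. The strongest of the 31 members near CWH43 was the region beside the centromere given above, and the strongest of the 69 near TPTE lay 2275 kb away at chr21:8244709-8246806, with −log10 p 37.5, 36.9, 53.0 and 54.4. MAP3K7 was named by rule, and TPTE, CWH43 and PCDH9 after the values were seen.

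**Figure D3:**
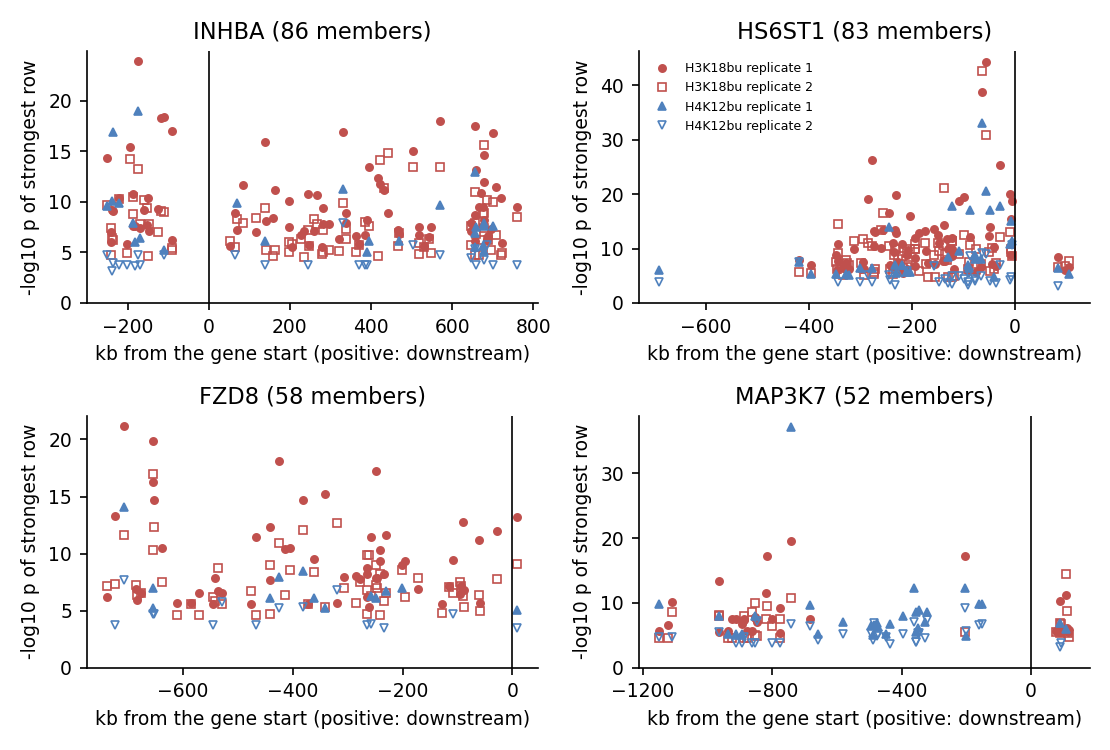
The −log10 p of the strongest row of each member in each of the 4 libraries, against distance from the gene start in kb (positive downstream), for members nearest to INHBA, HS6ST1, FZD8 and MAP3K7, with filled symbols for replicate 1 and open symbols for replicate 2. INHBA, HS6ST1 and FZD8 carry mostly H3K18bu (84, 77 and 58 members with that mark), and MAP3K7 carries 29 members with each mark, the H4K12bu-only ones mostly in a stretch from −658 to −320 kb.

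When genes of any type were counted, the genes with the most members were mostly pseudogenes and non-coding RNA genes. For H3K18bu these were the pseudogene RPS20P10 with 46 members, the miRNA gene MIR5702 and the lncRNA ENSG00000286328 with 38 each, ALCAM, which encodes an adhesion molecule, with 31, and the lncRNAs LINC01449 (29) and ENSG00000235070 (28). MIR5702 and ENSG00000235070 lie in the stretch whose nearest protein-coding gene is IRS1, and LINC01449 in that of INHBA. For H4K12bu they were the snoRNA gene ENSG00000253072 and the pseudogene ENSG00000276064 with 15 each, the pseudogene ENSG00000270516 with 14, MAP3K7 and MIR5702 with 13 each, and ENSG00000224132 with 12.

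In all, 6584 of 20033 protein-coding genes (32.9%) were the nearest protein-coding gene of at least 1 H3K18bu member and 5601 (28.0%) of at least 1 H4K12bu member. The lists of genes below were counted per Mb of the intergenic sequence nearest to their genes, since genes in wide deserts gather more members, and the values over all protein-coding genes were 25.6 H3K18bu and 12.8 H4K12bu members per Mb. They are descriptions with no test, and the lists were chosen with earlier results of these data known. The signalling and matrix lists were above the overall values and the neuronal and olfactory lists below.

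The AP-1 family, dimeric transcription factors that answer growth factors and stress, had 95.4 H3K18bu and 33.0 H4K12bu members per Mb, and 8 of its 10 genes had an H3K18bu member. FOSL2 had 8 members, 6 with H3K18bu and 6 with H4K12bu, and FOS had 7, all H3K18bu only, with rows at 7, 7, 0 and 0 in the 4 libraries. These genes lie in little intergenic sequence (0.273 Mb for the list), so the density rests on 26 H3K18bu and 9 H4K12bu members. The colon epithelial list had 89.6 and 40.6 per Mb, but 9 of 20 genes with an H3K18bu member. KLF5, a factor of dividing crypt cells, had 32 of the 53 H3K18bu members of that list, but also 0.358 of its 0.591 Mb of intergenic sequence. ELF3, whose start had no row, had 7 members of either mark. The genes of the list without an H3K18bu member included EPCAM and CDH1.

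Collagens and other matrix genes had 75.7 and 21.1 per Mb, with an H3K18bu member at 19 of 24 genes. THBS2, which encodes a matrix thrombospondin, had 36 members and COL12A1, a fibril-associated collagen, 24, all of these H3K18bu only. The TGF-beta and SMAD pathway had 74.8 and 24.5 (19 of 25 genes), of which the ligand gene INHBA held 84 of 296 H3K18bu members and the receptor TGFBR2 held 33. The Wnt pathway had 66.9 and 15.8 (20 of 26 genes), with FZD8 at 58 and the secreted Wnt antagonist SFRP1 at 24 members. The YAP and TEAD pathway had 49.1 and 18.2 (8 of 16), with 17 members at AMOTL2, which binds YAP, and 15 at VGLL3, a TEAD cofactor. A single gene thus gave a large part of several lists.

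Patterning transcription factors had 31.5 and 13.1 per Mb (44 of 51 genes), led by TBX3 (63 members) and NR2F1 (57). Junction genes had 31.3 and 10.5 (14 of 24), led by CDH2, or N-cadherin (51), and NECTIN3 (46). Both lists were close to the values over all genes. Potassium, sodium and calcium channels had 20.0 and 11.5 (60 of 141), led by KCNU1 (21) and KCNE4 (19). Neuronal synapse genes had 4.44 for each mark (4 of 24 with H3K18bu), with 9 members each at CNTN5 and SYT1, and olfactory receptors 5.16 and 4.59 (47 of 400), led by OR6J1 (11) and OR11H1 (8, all H4K12bu only).

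**Figure D4:**
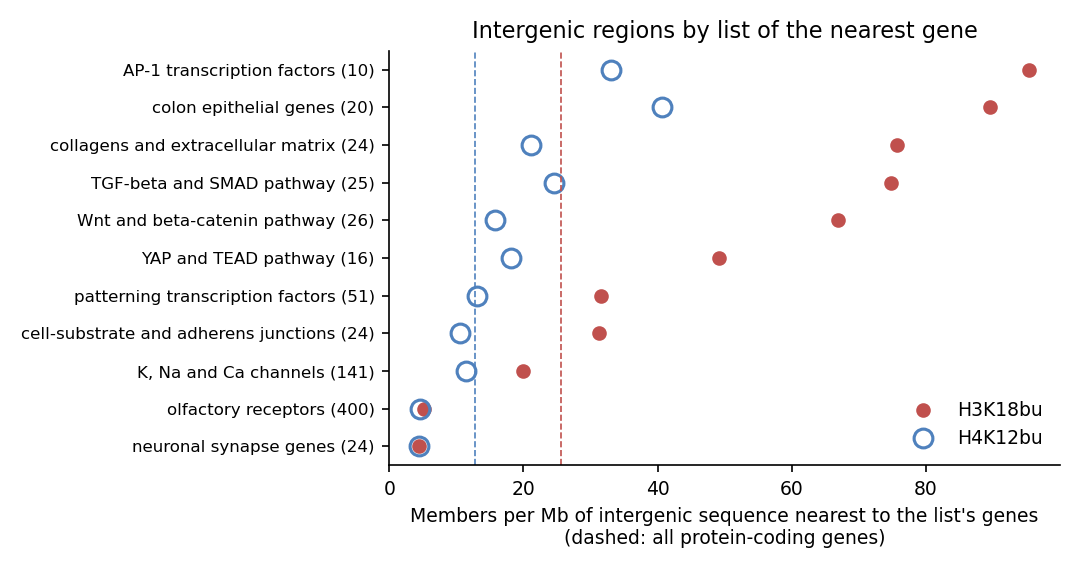
Members per Mb of the intergenic sequence nearest to the genes of each list, for H3K18bu (filled) and H4K12bu (open), with dashed lines at all protein-coding genes (25.6 and 12.8). AP-1, colon epithelial, matrix, TGF-beta and Wnt genes lie above 60 for H3K18bu, and neuronal synapse and olfactory receptor genes between 4.44 and 5.16 for both marks.

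Members also followed the state of the nearest protein-coding start. For H3K18bu, 40.4% of the members had a nearest start that itself carried H3K18bu in both replicates, against 30.1% of intergenic sequence, which gave 34.4 members per Mb beside marked starts and 21.9 beside unmarked ones. For H4K12bu the shares were 17.4% and 13.3%, with 16.8 and 12.2 per Mb. In each library on its own, the density was also higher beside starts with a row, at 66.0 against 43.4 and 73.5 against 43.2 for H3K18bu, and at 37.1 against 29.1 and 67.3 against 54.3 for H4K12bu. The background of a locus enters both counts, and the densities were not split by distance from the start, with which density fell. The part of either was not tested.

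In base composition the members differed from intergenic sequence in general. The windows of 75 bp on either side of the summits had a mean GC content of 51.6% in both replicates at H3K18bu-only members, 53.0% and 52.9% at H4K12bu-only members, and between 53.9% and 54.2% in the 4 libraries at members with both marks, against 39.9% over all intergenic windows of that length. By mark, the mean was 52.3% and 52.2% for H3K18bu members and 53.6% and 53.4% for H4K12bu members. Without H4K12bu replicate 1, the difference in mean GC turned from −1.22 to 2.52 points. That setting also dropped the need for a row in both H4K12bu replicates, and the part of each change was not tested. A GC content of at least 55% was found in 30.8% and 30.6% of H3K18bu-only windows, 37.2% and 36.4% of H4K12bu-only windows and 45.1%, 45.5%, 44.8% and 43.6% of those with both marks, and in 5.33% of intergenic windows. CpG dinucleotides had a mean of 1.84, 1.83, 2.05 and 2.06 per window in the 4 libraries against 1.33. Windows at gene starts held 8.08 and 8.07 for H3K18bu, so that the members were GC-rich without the CpG density of promoters.

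In the same windows, 20 short motifs were searched on both strands. AP-1 (TGANTCA) was in 9.43% and 9.34% of the H3K18bu windows and 8.42% and 7.92% of the H4K12bu windows, against 4.67% of intergenic windows. The difference of 1.21 points between the marks became −0.332 without H3K18bu replicate 1 and 0.0277 without H3K18bu replicate 2. Both settings also let in regions listed by the other H3K18bu replicate alone, and the part of each change was not tested. By class, it was in 8.64% and 8.61% of H3K18bu-only windows, in 5.03% and 5.15% of H4K12bu-only windows, and in 11.8%, 11.6%, 11.9% and 10.7% of those with both marks in the 4 libraries. H4K12bu-only members were thus close to the share of intergenic sequence, and members with both marks had more than 2 times that share. Among windows of 50 to 55% GC the order of the classes was the same, but each was above the sequence, at 7.61% and 7.64%, at 5.28% and 5.30%, and between 10.7% and 13.2%, against 3.84%. Inside genes the motif was in 9.28% and 9.23% of H3K18bu windows, and in 6.68% and 6.38% of H4K12bu windows, and at gene starts between 5.05% and 5.62%.

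When the members of a mark were ranked by −log10 p and cut into 4 equal parts, AP-1 matches were more frequent in the strongest than in the weakest part of the H3K18bu members, with 897 of 7197 windows against 572 of 7199 (7.95%) in replicate 1 and 923 (12.8%) against 539 (7.49%) in replicate 2. For H4K12bu they were 11.0% against 6.73% in replicate 1 and 8.34% against 7.42% in replicate 2, where the 4 parts had no order by strength (the next to weakest part had the most, 8.70%). They changed little with distance in H3K18bu, from 9.20% and 9.19% within 10 kb of a start to 9.64% and 10.1% beyond 100 kb. In H4K12bu they were in 9.12% and 8.25% within 10 kb and 6.31% and 6.49% beyond 100 kb, while the share of intergenic sequence was also lower there, at 3.94% against 4.67%. The motif is the one printed in capitals near SVIL and ENSG00000249112.

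The core of the motif of CTCF, the factor that organises chromatin loops (CC, any 3 bases, AGG, any base and GGC), was in 1.97% and 1.96% of the H3K18bu windows and in 2.67% and 2.52% of the H4K12bu windows, against 0.259% of intergenic windows. Without H4K12bu replicate 1, H4K12bu members had 1.27% and the difference between the marks turned from −0.636 to 0.689 points. That setting also let in regions listed by H4K12bu replicate 2 alone, and the part of each change was not tested. In windows of 50 to 55% GC the core was in 1.68% and 1.79% against 2.22% and 2.23%, beside 0.570%. The E-box CAGCTG, of basic helix-loop-helix factors, was in at least 12% of the windows of every library against 4.64% of intergenic windows, and in windows of 50 to 55% GC it was in 13.9%, 13.1%, 12.9% and 13.1% against 8.82%. The GC-rich SP/KLF motif (GGGCGGG) was in 1.84%, 1.83%, 2.11% and 2.16% against 0.482%, but in windows of 50 to 55% GC it was in 0.967%, 1.03%, 0.998% and 1.20% against 1.01%. In that band its share in the members was thus close to that of intergenic sequence, and windows of higher GC content were not compared.

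Motifs of TEAD (GGAATGT) and RUNX (TGTGGTT) were near the background, at 2.90%, 2.87%, 2.84% and 2.82% against 2.93% and at 3.12%, 3.16%, 3.16% and 3.10% against 2.85%. In windows of 50 to 55% GC, however, TEAD was in 3.09%, 2.89%, 2.94% and 2.96% against 1.51%, and RUNX in 3.38%, 3.33%, 3.39% and 3.36% against 2.06%. AT-rich motifs were below the share of intergenic sequence when windows of all GC contents were counted. The motif of GATA factors, AGATAA, was in 5.21%, 5.14%, 4.49% and 4.43% against 11.3%. That of CDX, the intestinal homeobox factors, which was searched as TTTATGG, was in 1.44%, 1.46%, 1.36% and 1.36% against 3.36%. A match is a string of letters in a window, and whether a factor binds there was not measured.

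The AP-1 and CTCF matches were more frequent around the summits than in the flanks. In the 20 bp after the summit AP-1 had 0.660, 0.622, 0.574 and 0.535 matches per kb in the 4 libraries. That was below the 0.750, 0.757, 0.619 and 0.601 from 40 to 60 bp. Within 60 bp of the summit there were 0.713 and 0.711 AP-1 matches per kb in the H3K18bu replicates and 0.629 and 0.596 in those of H4K12bu, against 0.369, 0.369, 0.321 and 0.319 at 400 to 500 bp, a ratio of 1.93, 1.93, 1.96 and 1.86. The CTCF core had ratios of 3.29, 3.33, 4.43 and 3.61. The ratio of SP/KLF ranged from 1.60 to 1.91, that of TEAD from 1.10 to 1.22 and that of RUNX from 1.05 to 1.10. The TEAD ratio averages over an uneven profile, since TEAD matches were more frequent beside the summit than in the 20 bp after it (0.127, 0.108, 0.0939 and 0.153 per kb), with 0.306, 0.294, 0.389 and 0.229 per kb from −80 to −60 bp against 0.162, 0.157, 0.160 and 0.169 at 400 to 500 bp. The flanks come from the same loci, and of the 5 motifs profiled the CTCF core had the highest ratio in each library.

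**Figure D5:**
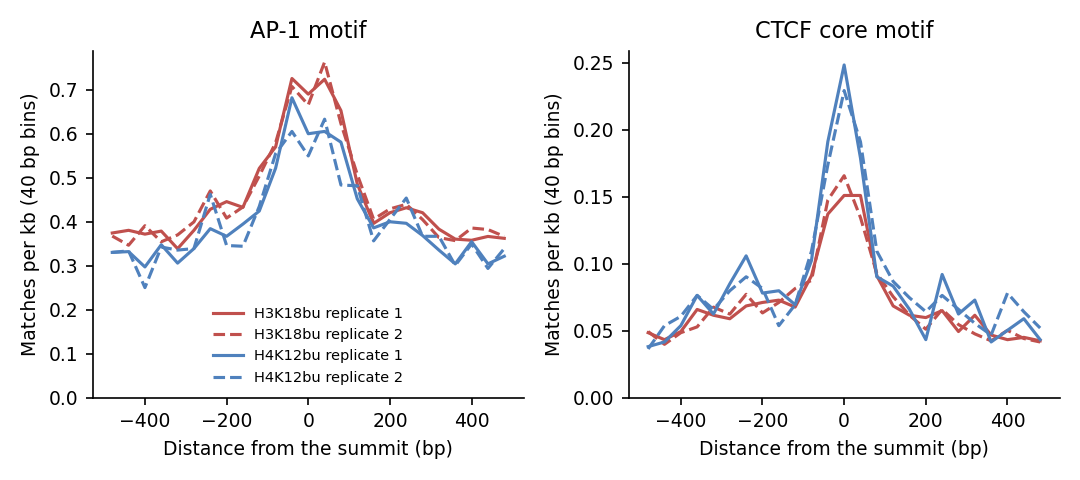
Matches per kb to the AP-1 motif and the CTCF core in 40 bp bins against distance from the summit in bp, for the intergenic members of each mark in each library (solid lines for replicate 1, dashed for replicate 2). Both rise around the summit in all 4 libraries, AP-1 from between 0.319 and 0.369 matches per kb at 400 to 500 bp to between 0.596 and 0.713 within 60 bp.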

How the data were processed

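CUT&Tag libraries of CCD841 cells were analysed from the peak lists. Per the paper's methods and the submitters' notes, the authors trimmed reads with cutadapt 1.9.1, aligned them with Bowtie2 2.3.1 and called peaks with MACS2 2.1.0 in each library without a control, at p of 0.01 and with a limit on the number of rows, on GRCh38, and removed blacklisted regions. The values deposited by the authors are a fold, which is the ratio of pileup to local background with 1 added to each, and the −log10 p and −log10 q of each row. The lists hold no read totals, so each row's pileup and background were solved from its fold and −log10 p, to within 0.01 in all but 1 row of H3K18bu replicate 2. Precision is limited by these small pileups.

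Rows were merged over an overlap of 1 bp, annotated with GENCODE 44 (Python 3.11.15, pandas 2.3.3, bedtools 2.31.1), and described per library. Sequence was read from GRCh38 in windows of 75 bp on either side of the strongest summit, or of the row's midpoint for 2 rows whose summit lay outside it, and compared with all windows of that length tiled over intergenic sequence. The reference was not soft-masked, so the share of 16-mers with at least 100 copies in the genome stood in for masking, a choice made after the files were seen. Scripts were tested on simulated data.

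Genes named were the 6 of any type nearest to the most members of each mark, those of the 3 strongest members of each class and of the 5 largest clusters, and 2 per gene list. The members, lists and motifs were chosen with earlier results of these data known. Nothing separates the replicates as cultures in the labels. Alternatives tried were stricter q, fewer rows, protein-coding genes only, a 3 kb start window, other distances and window sizes, and each library left out. The 8 mouse lists were not used.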

Additional observations from a re-analysis of the deposited data

Results flagged for a closer look

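The local background solved from the rows moved in opposite directions for the marks. The median background of intergenic rows exceeded that of rows at gene starts by 0.599 and 0.380 in the H3K18bu replicates, and it was −0.445 and −0.146 relative to gene starts in the H4K12bu replicates. Both libraries of a mark thus moved one way and both libraries of the other mark the opposite way, and the difference between the marks was not tested. By class, the H4K12bu background of H4K12bu-only regions was 1.66 and 0.927 between genes and 2.77 and 1.28 at gene starts. At regions with both marks it was nearly the same in both places, at 2.03 and 0.989 against 2.02 and 1.01.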

How the results depend on the processing

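The differences below are H3K18bu minus H4K12bu unless another pair is named, in percentage points for shares, and the cause of each change was not tested. The number of members depended on the lists and the annotation. With the 100000 rows of lowest p in each library there were 11640 members (7679 H3K18bu only, 2019 H4K12bu only and 1942 with both marks), and with protein-coding genes alone as genes 56298 (33426, 11388 and 11484). H4K12bu-only members fell to 4807 with q below 0.05 and to 2401 with q below 0.01, where 3234 had both marks. With protein-coding genes alone, the difference in intergenic share rose from 10.8 to 16.4 and that in the share beyond 100 kb turned from −1.51 to 0.730. With q below 0.01 the difference in mean GC was −1.57 (−1.22 as reported), that in CTCF core −0.969 (−0.636) and that in AP-1 between H3K18bu-only and H4K12bu-only members 5.06 (3.54), and with 150 bp on either side of the summit the AP-1 differences were 2.02 (1.21) and 5.56. Density on chromosome 22 over that on 19 was 2.11, and 2.53 per whole chromosome.

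Leaving out a library means that a mark was kept on 1 list. The members then numbered 50601 to 79610, with 17330 to 52452 H3K18bu only, 5991 to 50673 H4K12bu only and 8161 to 11515 with both marks. The intergenic share difference was 3.86 to 12.1, that in AP-1 between the single-mark classes 2.51 to 3.47, and that beyond 100 kb −4.51 to −1.29, each in 1 direction. Others turned. Without H4K12bu replicate 1, the difference within 10 kb was 2.16 (−2.32 as reported, lowest −2.50), in GC 2.52 (lowest −2.54), in CTCF core 0.689 (lowest −1.10) and in median width 284 bp (−60.0 as reported, lowest −249), and without H4K12bu replicate 2 the width difference was 153 bp. Without H3K18bu replicate 1 the AP-1 difference by mark was −0.332 (highest 3.33). Each of these settings left out a library and also dropped the need for both replicates of its mark, so the turns cannot be put down to either alone. The order of AP-1 between the single-mark classes did not turn in the settings in which it was recomputed. These were q below 0.01, the wider window around the summit, the omission of mostly repeated windows, and each library left out. Under the other settings AP-1 was not recomputed.

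Of 122 values that answer a comparison, 72 stayed within the limits set, 43 moved and 7 turned; of 152 others, 86 stayed and 66 moved. Counting only windows with under 50% repeated 16-mers was added after the data were seen. The planned use of soft-masked bases was not run, since the reference is not masked. No paired analysis was possible because the labels do not say what a replicate number shares between the marks. A member needs a row in both replicates of a mark, so a count of members has 1 value a mark. Shares read in each library have 2 values a mark, and these were described without a test. The lists hold no read totals, and the lowest median pileup over all rows of a library was 7, in H4K12bu replicate 2 (6 over its intergenic regions).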
